A study of Mus musculus with 8 samples.

Results

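The miR-15/16 family is a set of microRNAs (miRNAs) that share one seed, the stretch of bases 2 to 8 at the 5′ end that pairs with target messenger RNAs. Its members here were mmu-miR-15a, mmu-miR-15b, mmu-miR-16, mmu-miR-195, mmu-miR-322 and mmu-miR-497, chosen by name and by their shared seed; their values did not enter the choice rule. These were 6 of the 567 mouse miRNAs on the array and 6 of the 126 miRNAs that were tested. Total RNA from skeletal muscle of mice was labelled with Cy3 and read on 8 one-colour Agilent miRNA arrays, 4 from diabetic and 4 from control mice. The series' design text gives the diabetic mice as C57BL/KsJ db/db and the control mice as C57BL/KsJ db+, on 1 shared strain background. The db allele disrupts the leptin receptor in every tissue, so the diabetes comes with obesity and is not confined to muscle. The strain entry of each sample states the reverse, with db+ on all 4 diabetic arrays and db/db on all 4 control arrays. Groups here follow the title, the description and the group entry, which give the same group for each array, and every direction below would turn round if the strain entries were right. The labels give no age, no muscle and no statement that each array came from a separate mouse, so the p-values measure the spread between these arrays, which may be technical.

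Family members are loaded into Argonaute proteins and repress messages that match their seed. They are best known for holding back the cell cycle through targets such as cyclins and cyclin-dependent kinases, and for repressing the survival gene Bcl2. In muscle lineages of the mouse, miR-195 and miR-497 have been linked to cell cycle exit of heart muscle cells and to quiescence of muscle stem cells, and miR-322, the mouse counterpart of human miR-424, to the differentiation of myoblasts.

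The mature sequences below come from RefSeq (build GRCm38.p6) and are shown because the seed, in capitals, is what the 6 members have in common, while the lower-case bases after it set them apart.
miR-15a: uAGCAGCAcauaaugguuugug
miR-15b: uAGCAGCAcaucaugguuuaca
miR-16: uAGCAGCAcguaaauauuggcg
miR-195: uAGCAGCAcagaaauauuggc
miR-322: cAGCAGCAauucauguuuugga
miR-497: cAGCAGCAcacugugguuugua
All 6 carried AGCAGCA at bases 2 to 8. Of 1679 mature mouse names in the RefSeq table, 10 did so, the 6 members among them. Counted from the 5′ end without gaps, miR-16 and miR-195 differed at 2 of 21 bases, G10A and U11G with the base of miR-16 first. miR-15a and miR-15b differed at 4 of 22 bases, all after the seed. The most distant pair was miR-16 and miR-497, which differed at 11 of 22 bases.

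The genes lay in 4 clusters, and the positions and distances given here are those of the mature sequences. Mir15a (chr14:61632075-61632096, minus strand) and Mir16-1 (chr14:61631936-61631957, minus strand) both lay within Dleu2, a long non-coding RNA gene, with 117 bases between the 2 mature sequences. Mir15b (chr3:69009775-69009796, plus strand) and Mir16-2 (chr3:69009918-69009939, plus strand) lay within Smc4, which encodes a condensin subunit, 121 bases apart. Both Mir16 genes give the same mature sequence, so the array level of miR-16 does not separate them. Mir497 (chr11:70234730-70234751, plus strand) and Mir195a (chr11:70235062-70235082, plus strand) were 310 bases apart. Mir322 (chrX:53054306-53054327, minus strand) lay 256 bases from Mir503 within the non-coding gene C430049B03Rik. The array names carry no arm, and each was matched to the RefSeq arm with the shared seed by name alone. Binding of one member to the probes of another was not tested.

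All 8 arrays lay on 1 slide and were read in 1 scan. The 4 diabetic arrays lay in slide row 2 and the 4 control arrays in row 1, so row and group cannot be told apart. The 75th percentile of intensity used for scaling was 219 to 479 on the diabetic arrays and 308 to 618 on the control arrays. Between 102 and 131 miRNAs were detected on a diabetic array and between 112 and 147 on a control array. Control arrays varied more: the SD between arrays was larger in the control group for 113 of the 126 tested miRNAs, including all 6 members. With no scaling the SD was larger on the diabetic arrays for miR-195, miR-322 and miR-497, and with quantile normalization for miR-497. The muscle markers miR-1, miR-133a and miR-133b were bright in both groups, and the 6 muscle markers had a summed level of 77.9 to 107 on the diabetic arrays and 52.7 to 103 on the control arrays, lowest on control array 2. miR-499 was undetected on every array, and miR-208b was detected on 4 of 8. With 4 arrays a group the number of arrays limits the precision, and in whole tissue fewer cells of a type and less RNA per cell cannot be told apart.

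All 6 family members were detected on all 8 arrays, with no saturated spot and no value at the floor. None passed the test between diabetic and control muscle (limma, Benjamini-Hochberg over 126 miRNAs, threshold 0.05), while 4.76% of all tested miRNAs did, each of them higher on the diabetic arrays (4.76% higher, 0% lower). The largest difference was that of miR-15b, whose level on the diabetic arrays was 0.600 of that on the control arrays, with an adjusted p of 0.26 from limma. The other 5 members had ratios between 0.809 for miR-497 and 1.03 for miR-15a. The groups overlapped for all 6 members, against 8.73% of tested miRNAs whose groups did not overlap. An unadjusted p under 0.05 was found for 1 of 6 members, miR-15b, and for 16.7% of all tested miRNAs. Over 21 alternatives the unadjusted p was under 0.05 in 11 for miR-15b and in 4 for miR-497. The median difference of the family was −0.0996 on the log2 scale, with 5 members lower and 1 higher on the diabetic arrays, beside −0.060 over all 126 (58 higher, 68 lower). This 5 to 1 balance depended on the scaling: dividing by the 75th percentile over all mouse probes shifted the median of all tested miRNAs to 0.26 and left only miR-15b lower.

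Levels below are log2 intensities relative to the 75th percentile of the same array, and a level of one miRNA is not set against that of another, since probes differ in brightness.

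miR-15b, made from the cluster in Smc4, had the largest SD of the 6 members in both groups on this scale; with no scaling its SD on diabetic arrays, 0.170, was the smallest. Its levels were −2.33, −2.65, −2.66 and −1.92 on the diabetic arrays, against −1.61, −0.76, −2.32 and −1.93 on the control arrays. Control array 2 was far above the other 7, and diabetic array 4 and control arrays 3 and 4 lay in the overlap. The mean was −2.39 ± 0.351 on diabetic and −1.65 ± 0.665 on control arrays (SD, n = 4 each). The difference was −0.74 (SE 0.324, 95% interval −1.45 to −0.026), with an unadjusted p of 0.0434 and an adjusted p of 0.26 from limma. Without control array 2 it was −0.44 (adjusted p = 0.383, limma).

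Before scaling, the brighter of the 2 probes for miR-15b had intensities of 122, 133, 111 and 100.0 on the diabetic arrays, against 173, 622, 117 and 146 on the control arrays. Control array 2 stood apart, and it also had the highest scaling value of the 8 arrays, 618. Diabetic array 4 was the lowest of the diabetic arrays before scaling and the highest after it, since its scaling value, 219, was the lowest of all 8. The dimmer probe lay between 16.4 and 20.1 on the diabetic arrays, against 28.9, 110.3, 17.5 and 25.7 on the control arrays. This dimmer probe was close to background: it was undetected on control array 3, and its spots had a median coefficient of variation of 20.2%. After scaling the brighter and the dimmer probe differed between groups by −0.73 and −0.77.

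miR-16, which both the Dleu2 and the Smc4 cluster produce, was steadier. Its levels were −1.69, −1.89, −1.92 and −1.78 on the diabetic arrays, against −1.59, −1.49, −1.97 and −1.84 on the control arrays. The control arrays held both the highest and the lowest value, and the diabetic values lay between them. The difference was −0.097 (SE 0.198, 95% interval −0.53 to 0.34), with an adjusted p of 0.869 from limma.

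miR-15a, the partner of miR-16 in Dleu2, had the smallest difference. Its levels were −0.16, −0.15, −0.15 and −0.16 on the diabetic arrays, against −0.68, 0.18, −0.13 and −0.15 on the control arrays. Control array 1 was lowest and control array 2 highest, and the other 6 nearly coincided. The difference was 0.037 (SE 0.218, 95% interval −0.44 to 0.52; adjusted p = 0.919, limma), and without control array 1 it was −0.12. The SD of 0.00786 among diabetic arrays follows in part from the scaling. The brighter miR-15a probe ranked between 111 and 114 of the 152 scaling probes there, beside the rank of 114.25 at which the 75th percentile falls. With no scaling the diabetic SD of miR-15a was 0.496, and with the median of the same probes 0.141.

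miR-195 and miR-497 come from 1 cluster on chromosome 11. miR-195 had levels of −0.62, −0.73, −0.90 and −0.77 on the diabetic arrays, against −0.73, −0.98, −0.55 and −0.44 on the control arrays. Its diabetic values lay within the control range, and the difference was −0.078 (SE 0.201, 95% interval −0.52 to 0.36; adjusted p = 0.869, limma). miR-497 had levels of −1.46, −1.67, −1.91 and −1.69 on the diabetic arrays, against −1.36, −1.60, −1.40 and −1.14 on the control arrays. Here 3 of 4 diabetic arrays lay below every control array, and diabetic array 1 lay within the control range. The difference was −0.31 (SE 0.200, 95% interval −0.74 to 0.13), with an adjusted p of 0.526 from limma.

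miR-322, from the X-linked cluster with miR-503, had levels of −1.41, −1.79, −1.86 and −1.56 on the diabetic arrays, against −1.70, −1.77, −1.26 and −1.48 on the control arrays. The values of the groups interleaved. The difference was −0.10 (SE 0.209, 95% interval −0.56 to 0.36; adjusted p = 0.869, limma). The 95% intervals reached about 0.4 to 0.5 on either side for miR-15a, miR-16, miR-195 and miR-322. Smaller shifts could not be told from no shift with these arrays. These intervals are not adjusted for the number of miRNAs tested, so larger shifts could also miss the adjusted threshold. Outside the family, miR-29a had a difference of 0.761 with a similar SE, 0.210, and did not pass (adjusted p = 0.0581, limma).

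**Figure D1:**
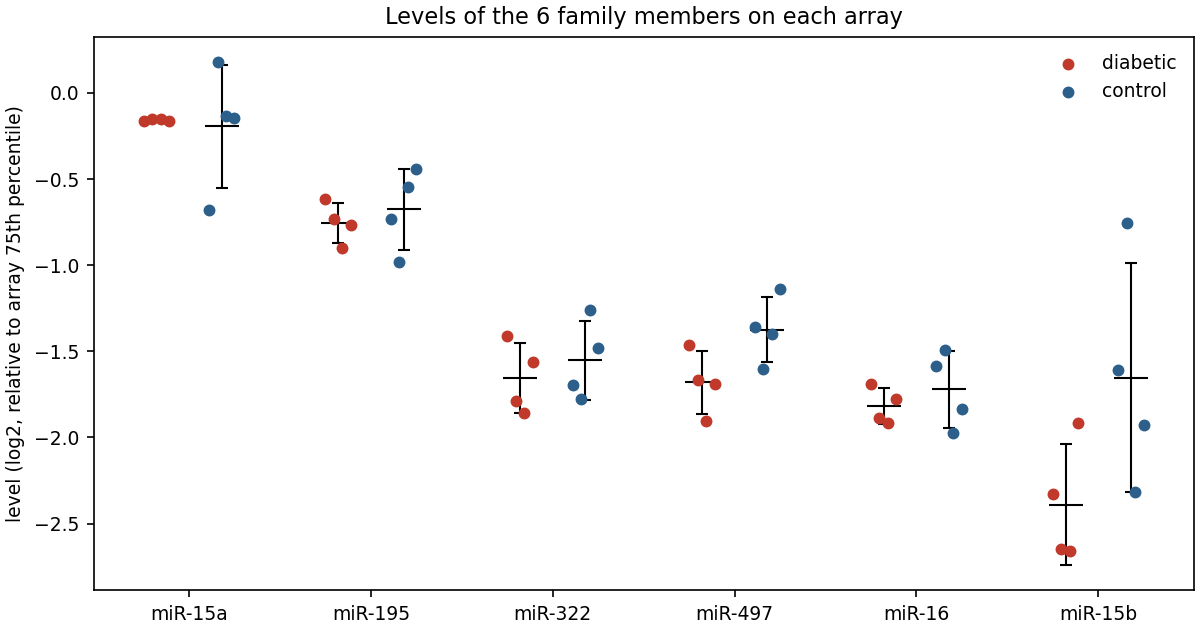
Level of each family member (log2, relative to the 75th percentile of its array) on every array, diabetic in red to the left and control in blue to the right; bars are the mean and SD of 4 arrays. The 2 groups overlap for every member, and the 4 diabetic values of miR-15a nearly coincide.

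**Figure D2:**
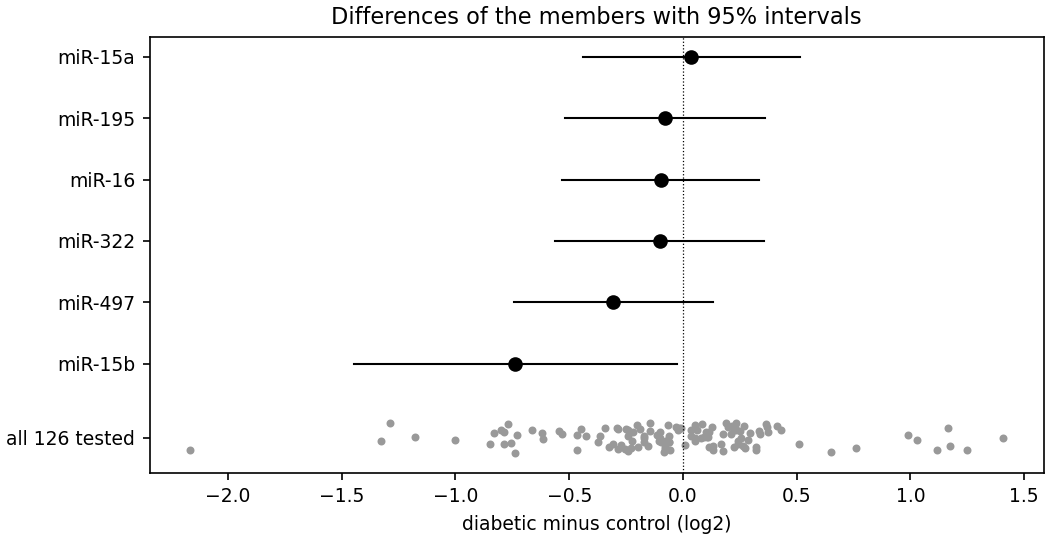
Difference of each member, diabetic minus control on the log2 scale, with its 95% interval from limma, above the differences of all 126 tested miRNAs in grey. The interval of miR-15b ends at −0.026 and those of the other 5 members span 0.

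Each member was measured by 2 probes of 10 spots, and the probes of a member moved in the same direction between groups for all 6 members. The differences of the brighter and the dimmer probe were −0.30 and −0.35 for miR-497, −0.077 and −0.17 for miR-322, −0.070 and −0.12 for miR-195, −0.088 and −0.13 for miR-16, and 0.039 and 0.035 for miR-15a. Over the 8 arrays, which share the scaling, the correlation between the 2 probes of a member was between 0.842 (miR-16) and 0.992 (miR-15b). Outlier spots removed numbered between 4 (miR-322) and 15 (miR-16) of 160 spots per member.

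**Figure D3:**
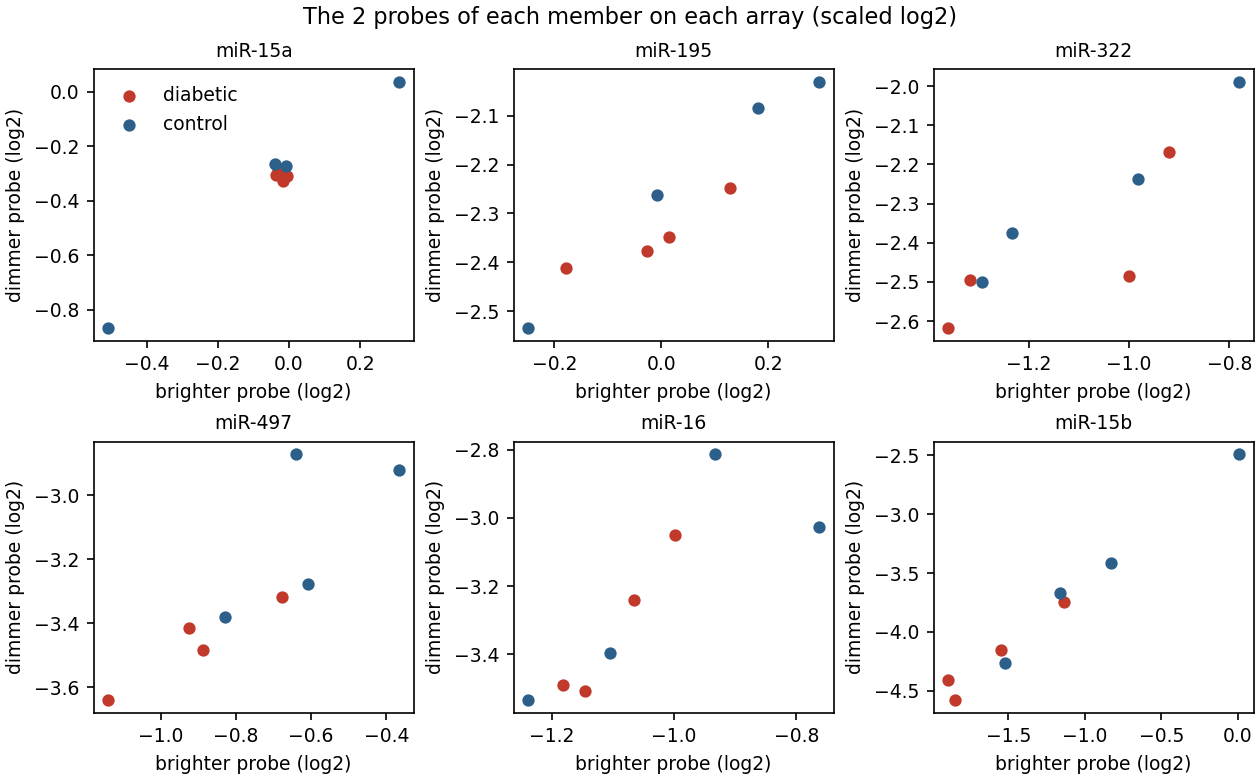
Scaled log2 intensity of the dimmer probe against the brighter probe of each member, 1 point per array, diabetic in red and control in blue. The 2 probes rise together for every member, and the 1 control array at the upper right of the miR-15b panel is control array 2.

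The members did not form 1 group across arrays. As a description over 8 arrays that share a scaling and a slide, the median Pearson r over the 15 pairs of members was −0.015, beside 0.274 over all 7875 pairs of tested miRNAs. 2 sets stood out over the 8 arrays together. miR-195, miR-322 and miR-497 varied alike, with r of 0.787 for miR-195 and miR-322, 0.785 for miR-195 and miR-497, and 0.624 for miR-322 and miR-497. Spearman's rho for these 3 pairs was 0.714, 0.690 and 0.619. Their r without the 2 arrays farthest from the median was 0.890, 0.817 and 0.483. Here and below, that median is the one of the first-named family member alone. The arrays left out can thus differ between pairs. The median r with all tested miRNAs outside the family was 0.498 for miR-195, 0.225 for miR-322 and 0.382 for miR-497. The pair miR-15b and miR-16 had r of 0.841 and rho of 0.738, and r of 0.632 without the 2 arrays farthest from the median. miR-15a followed neither set, and its r with miR-16, its neighbour in Dleu2, was −0.030, but −0.856 without the 2 farthest arrays, control arrays 1 and 2. On the remaining arrays miR-15a lay between −0.165 and −0.134, so this r of −0.856 rests on a very small range. Taking each array's deviation from its own group mean gave r of 0.874 for miR-15b and miR-16 and 0.885 for miR-195 and miR-497. It gave 0.773 for miR-195 and miR-322 and 0.636 for miR-322 and miR-497. The 2 sets ran opposite to each other on the control arrays only. On the diabetic arrays r of miR-16 with miR-195, miR-322 and miR-497 was 0.809, 0.998 and 0.857, against −0.874, −0.990 and −0.569 on the control arrays. For miR-15b these were 0.285, 0.691 and 0.347 on diabetic and −0.905, −0.912 and −0.667 on control arrays. Each of these rests on 4 arrays. miR-16 and miR-195, which differ at only 2 bases, had r of −0.439, the lowest of all 15 pairs, but 0.087 without the 2 arrays farthest from the median.

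**Figure D4:**
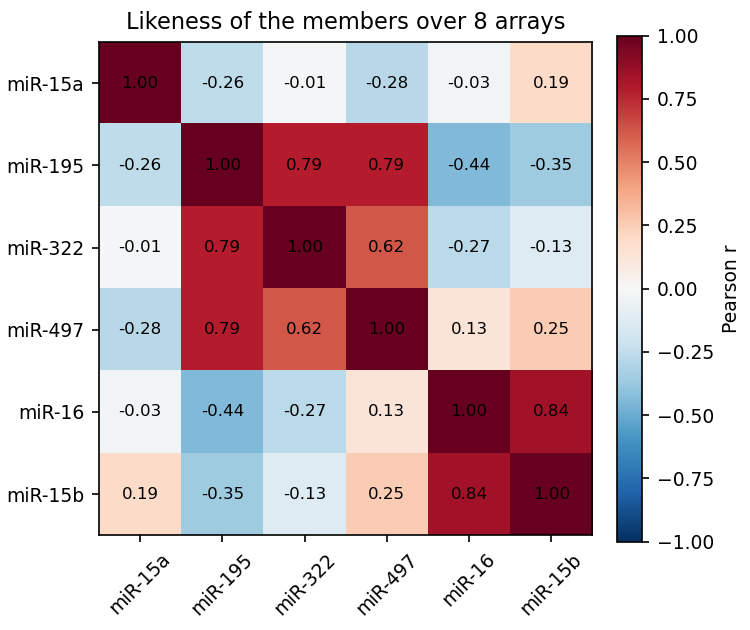
Pearson r between the levels of each pair of members over 8 arrays, from −1 in blue to 1 in red. One block holds miR-195, miR-322 and miR-497, another holds miR-16 and miR-15b, and miR-15a belongs to neither.

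Ratios within an array remove what the scaling adds. The log2 ratio of miR-15b to miR-16 was −0.57 ± 0.293 on diabetic and 0.068 ± 0.466 on control arrays (SD, n = 4 each), with ranges of −0.76 to −0.14 on diabetic and −0.35 to 0.73 on control arrays, which overlap. The log2 ratio of miR-497 to miR-195, from 1 cluster, was −0.93 ± 0.0659 on diabetic and −0.70 ± 0.107 on control arrays. The groups met only at their edges: the highest ratio on a diabetic array was −0.84 and the lowest on a control array −0.85. How often the groups lie this far apart for other pairs of miRNAs was not counted. The log2 ratio of miR-15a to miR-16 was 1.66 ± 0.113 on diabetic and 1.53 ± 0.418 on control arrays. Those of miR-195 and of miR-322 to miR-16 differed between groups by 0.019 and −0.0059. All these ratios compare changes between probes and are not relative amounts.

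Outside the family, the tested miRNA most like miR-15b was miR-223, a miRNA of granulocytes and other myeloid cells (r = 0.941, rho = 0.976, and r = 0.794 without the 2 farthest arrays). Its levels were −2.85, −2.20, −3.11 and −0.88 on the diabetic arrays, against −0.82, 0.79, −2.07 and −1.80 on the control arrays. The same arrays were high for both: control arrays 1 and 2 and diabetic array 4. The next most alike was miR-801, which is on none of the marker lists (r = 0.902, rho = 0.952, and r = 0.820 without the 2 farthest arrays). Its difference of −2.17 was the largest in size of all 126, with an adjusted p of 0.0663 from limma, and its groups overlapped. miR-15b also followed the summed level of the 6 leukocyte markers (r = 0.966, rho = 0.976 on the log2 scale, r = 0.866 without the 2 farthest arrays, and 0.948 after group means were removed). That sum was 0.215 to 0.670 on diabetic and 0.383 to 2.09 on control arrays, with the highest value on control array 2. miR-223 alone made up between 53.7% and 83.0% of the sum, so the sum is not independent of it. For the 5 other markers together, a sum formed after these values were seen, r was 0.958 and rho 0.929 (0.839 without the 2 farthest arrays).

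Of the 6 leukocyte markers, 3 could be tested and all 3 had lower means on the diabetic arrays, with a median difference of −0.80, but none passed the test. The smallest adjusted p was 0.0611 for miR-342-3p (limma). The markers did not all follow the same arrays: miR-155 was lowest on control array 2, at −5.71, and miR-342-3p was highest on control array 1, at −2.85. But miR-155 was dim, at most −5.04 on any array, against a floor of −5.95. miR-142-3p, made in cells of the blood lineage, was called detected on 0 diabetic and 3 control arrays, although its level on diabetic array 4, −4.69, was above those of control arrays 3 and 4, −4.91 and −4.97. Its highest level was −2.42, on control array 2, the only array on which miR-142-5p was detected, at −4.34. miR-150, of mature lymphocytes, was undetected on every array. The erythroid sum was 1.03 to 1.99 on diabetic and 1.54 to 2.75 on control arrays, also highest on control array 2. Its r with miR-15b was 0.684 (rho = 0.5). The erythroid markers did not all follow this array. miR-451 was highest on control array 2, at 1.23, and miR-144 was detected on that array alone, at −3.78. But miR-486 was lowest there, at −1.64. The part of blood cells in the level of miR-15b was not tested.

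The miRNAs most like miR-16 were miR-93 (r = 0.970, rho = 0.881) and miR-25 (r = 0.886, rho = 0.905), both made from the miR-106b cluster. miR-93 was dim, undetected on 2 arrays and at the floor on control array 3. miR-195 and miR-322 were each most like miR-126-3p, a miRNA of endothelial cells, with r of 0.887 (rho = 0.833) and 0.809 (rho = 0.810). Next came let-7g for miR-195 (r = 0.875) and miR-10a for miR-322 (r = 0.770). The endothelial sum was 1.79 to 2.45 on diabetic and 1.59 to 2.65 on control arrays. It was in effect miR-126-3p alone, since the other listed marker, miR-126-5p, was undetected on every array. The part of endothelial cells in the levels of miR-195 and miR-322 was not tested. miR-497 was most like miR-107 (r = 0.928, rho = 0.929) and let-7e (r = 0.885, rho = 0.929). For miR-15a the best match, miR-106b, had r of 0.827 but rho of 0.214. Without the 2 farthest arrays r was −0.864, over a very small range of miR-15a, so that likeness rests on control arrays 1 and 2. The next, miR-140, had r of 0.700, rho of 0.738 and r of 0.311 without those arrays.

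**Figure D5:**
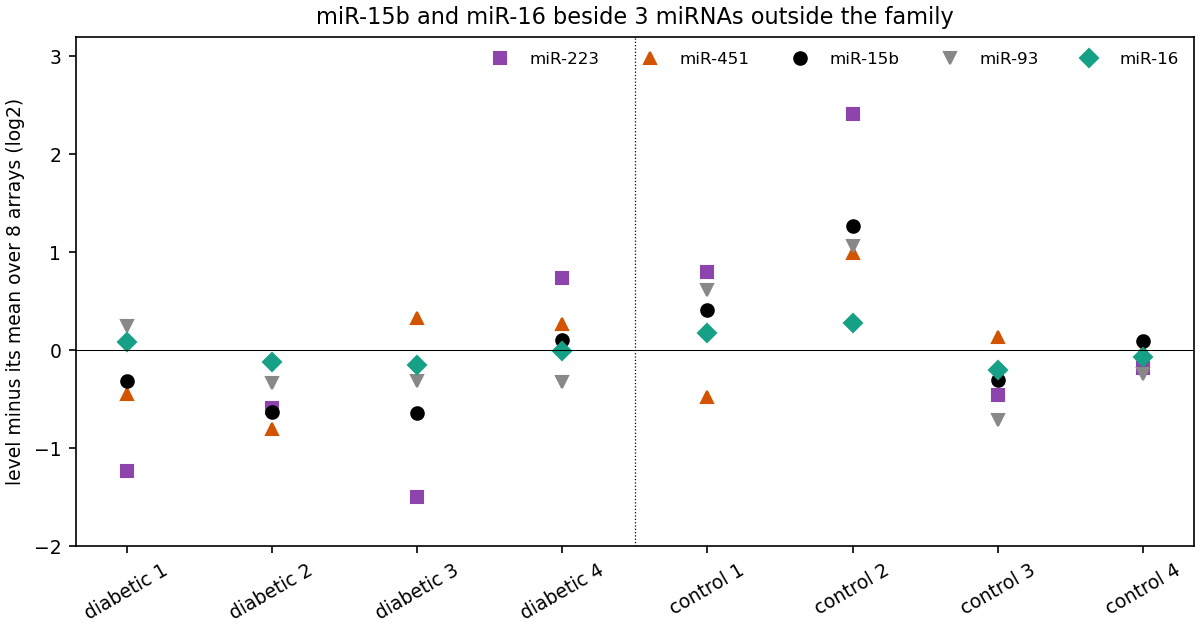
Level of miR-15b, miR-16, miR-223, miR-93 and the erythroid marker miR-451 on each array, as the log2 difference from the miRNA's own mean over the 8 arrays, diabetic arrays on the left and control arrays on the right. Control array 2 is the highest for all 5 miRNAs.

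The other strands and cluster neighbours of the members were nearly all below detection. Of 16 listed, 12 were on the array, and 11 of these were undetected on every array, including miR-15a*, miR-15b*, miR-16*, miR-322*, miR-503 and miR-351. The remaining one, miR-542-5p, was detected on control array 4 alone. miR-503 shares the X-linked cluster with miR-322 and differs from the family at the last seed base, as its sequence shows, with the seed in capitals.
miR-503: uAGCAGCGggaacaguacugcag
Not being detected leaves only a bound, and no difference is given for these.

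miR-103 and miR-107, which begin with the same 7 bases shifted by 1 position, are shown with their own bases 2 to 8 in capitals, so that the shift against the family can be read.
miR-103: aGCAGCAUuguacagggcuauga
miR-107: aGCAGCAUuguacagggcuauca
Both had lower means on the diabetic arrays and neither passed the test. miR-107 had levels of −2.25, −2.67, −2.74 and −2.37 on the diabetic arrays, against −1.96, −2.46, −2.20 and −1.92 on the control arrays. The groups overlapped, and the difference was −0.37 (adjusted p = 0.441, limma). The difference of miR-103 was −0.27.

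Among 17 other miRNAs known for restraining or driving the cell cycle (let-7, miR-34, miR-26 and the miR-17 relatives), 14 could be tested, 7 were higher and 7 lower on the diabetic arrays, and none passed the test. Their median difference was 0.013. The smallest adjusted p in this list was 0.391 for miR-26a, a regulator of myoblast differentiation, whose mean was 0.42 on diabetic and 0.0012 on control arrays (limma).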

How the data were processed

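Per the file headers, each deposited value is a spot intensity from Feature Extraction 10.5 after background subtraction, with no normalization between arrays. Deposited flags of 0 or 1, with no unit, mark outlier, saturated and well-above-background spots, per the file headers. Groups follow the titles. Outlier spots were dropped and the rest averaged per probe; a probe was detected where at least 50% of its spots were well above background. For scaling, intensities were expressed relative to the array's own 75th percentile, taken across 152 probes with detection on every one of the 8 arrays. The probes of a miRNA were averaged, floored at 0.0162 (1st percentile, detected levels only) and put on the log2 scale. The 126 miRNAs detected on at least 4 arrays were fitted with limma 3.58.1 in R 4.3.3 (lmFit, eBayes) and Benjamini-Hochberg adjustment. The fit was tested on simulated data. Alternatives covered scaling, background (normexp on median signals, with offset 50), probe summary, filter, floor, array weights, replicate block and leaving out each array. The family and all lists (relatives, offset seed, cell cycle, and muscle, erythroid, leukocyte, endothelial, fibroblast and smooth muscle, liver, neural and epithelial markers) were chosen with earlier results of these data known. Named were all members, listed relatives, and the 2 outside miRNAs most correlated with each member.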

Additional observations from a re-analysis of the deposited data

How the results depend on the processing

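None of the 6 members passed the threshold in any of 21 alternatives. miR-15b was lower on the diabetic arrays in all 21, between −0.96 (without control array 3) and −0.41, with adjusted p from 0.0976 to 0.541 (limma). Scaling to the 75th percentile over all mouse probes turned miR-16 (0.23), miR-195 (0.25), miR-322 (0.22) and miR-497 (0.018) to higher and left 1 member lower. It moved the median of all tested miRNAs to 0.26 and of the members to 0.22. This setting changes only the divisor of each array, so all 6 members shifted alike, miR-15b from −0.74 to −0.41 and miR-15a from 0.037 to 0.36. Why the divisors moved this way was not tested. Relative to each setting's median of all tested miRNAs, miR-15b, miR-195 and miR-497 were lower in 21 of 21. The smallest gap was −0.31 for miR-15b, −0.19 for miR-497 and only −0.0028 for miR-195. miR-322 was lower in 20, miR-16 in 19 and miR-15a in 5. The settings reuse the same arrays. miR-15a turned lower with the median of detected probes (−0.0071), quantile normalization (−0.043) and no scaling (−0.068), and lay between −0.12 and 0.16 as single arrays were left out; the cause was not tested.

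Over all tested miRNAs, the number called higher, 6, fell to 0 with no scaling and 2 with no filter, and lay between 2 and 7 as single arrays were left out, 2 without diabetic array 1, 2 or 3 or control array 1 or 2. The number called lower, 0, became 1 with the all-probe percentile, the scanner's total signal or array weights, 2 with the median, the brightest probe or detection on all 8 arrays, and 3 with normexp, and lay between 0 and 3 as single arrays were left out. Replicate numbers follow slide columns. Same-numbered arrays correlated in their deviations by 0.207, 0.0816, 0.506 and −0.289, and 3 of 4 were closest to their own number. Since 2 of the 4 correlations were not above 0.1, pairing was not assumed, and whether the numbers pair the arrays is unsettled. With a replicate block, 7 were called higher and 3 lower, no member among them.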

Other observations

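Lists of other cell types that the report does not describe gave no called miRNA. All 4 tested fibroblast and smooth muscle markers had lower means on the diabetic arrays, with a median difference of −0.50, beside 68 of 126 lower over all tested miRNAs. For miR-143 the difference was only −0.030, and miR-145 was undetected on every array. The summed levels were 0.535 to 0.564 on diabetic and 0.564 to 0.913 on control arrays, and they just overlapped. The smallest adjusted p was 0.237, for miR-199a-5p (limma). Both liver markers, miR-122 and miR-192, had higher means on the diabetic arrays, with a median difference of 0.18. The 2 neural and the 2 epithelial markers were undetected on every array. Among the 5 tested muscle markers the smallest adjusted p was 0.132, for miR-206 (limma), whose mean was −0.39 ± 0.916 on diabetic and 0.94 ± 0.646 on control arrays (SD, n = 4 each).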
